A study of Bos taurus with 12 samples.

Results

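Integrins are receptors of the cell surface that bind the extracellular matrix, and their levels were followed through the adipogenic differentiation of bovine intramuscular preadipocytes. Described here are 10 integrin subunits of the 33714 rows of the mRNA table, chosen by gene name, and the 3 circRNA rows of 14070 whose host gene is ITGA3. The subunits were ITGA1, ITGA3, ITGA5, ITGA6, ITGA7, ITGA11 and ITGAV, which are alpha subunits, and ITGB1, ITGB3 and ITGB5, which are beta subunits. Each had 1 row. All 10 passed the filter on low values, a mean of at least 0.1 FPKM (sequenced fragments per kilobase of transcript, scaled to the mapped fragments of the library). The row of ITGA1 also carries the name PELO, a gene that lies inside ITGA1 in the RefSeq annotation of ARS-UCD2.0, so that the reads of both cannot be told apart.

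Preadipocytes were taken from a back muscle, the longissimus dorsi, of newborn Qinchuan cattle and kept in medium with 15% fetal bovine serum. The 12 libraries comprised 3 from cells of day 0 (0 d) and 3 from each of 3, 6 and 9 d of induction. At 90% confluence the cells received 0.5 mM IBMX (an inhibitor of phosphodiesterases), dexamethasone (a synthetic glucocorticoid) and insulin for 48 h, and insulin without the other agents from then on. The labels and the study's methods give different doses of dexamethasone and insulin. The labels carry this protocol for all 12 libraries, and the 0 d cells are taken as uninduced from their day alone. The study calls the 3 libraries of a day biological replicates, and its authors write of 1 batch of adipocytes over the days. Whether the replicates came from separate animals is not said, so that p-values measure the spread between these libraries. No uninduced cells of 3, 6 or 9 d were analysed here, so that the induction and the days in culture cannot be told apart. FPKM hold no counts, and the depth behind a single FPKM is unknown. Back-spliced reads, which span the junction of a circRNA, numbered 5358 to 10729 per library.

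An integrin is a pair of 1 alpha and 1 beta subunit, and the pair decides which matrix protein is bound. ITGB1 pairs with the collagen receptors ITGA1 and ITGA11, with the laminin receptors ITGA3, ITGA6 and ITGA7 and with the fibronectin receptor ITGA5. ITGAV pairs with ITGB1, ITGB3 or ITGB5 and binds vitronectin, fibronectin and other proteins with an RGD motif. Inside the cell, adaptors such as talin and kindlin join the beta subunits to actin. During adipogenesis the cells change from a spread to a rounded shape and replace fibrillar matrix by basement membrane.

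Most of the 10 subunits fell at 3 d and were higher again at 6 d. A subunit was called when limma gave an absolute log2 fold change over 1 on log2(FPKM + 0.1), a scale that understates changes of low genes, and a Benjamini-Hochberg adjusted p under 0.05 over all 15402 mRNAs tested. At 3 d, 7 of the 10 were called lower than at 0 d (ITGA1, ITGA3, ITGA7, ITGA11, ITGAV, ITGB1 and ITGB3), where 15.2% of all tested mRNAs were called lower. None of the 10 was called higher by limma (0 also at an unadjusted p under 0.05), against 8.06% of all. The median log2 fold change of the 10 was -1.90, and that of all tested mRNAs was -0.06. For 9 of the 10, all 3 libraries of 3 d lay below every library of 0, 6 and 9 d, as they did for 16.6% of all tested mRNAs. The exception was ITGA6, which was lowest at 6 d. In bulk libraries, fewer cells of a type and less RNA per cell cannot be told apart.

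**Figure D1:**
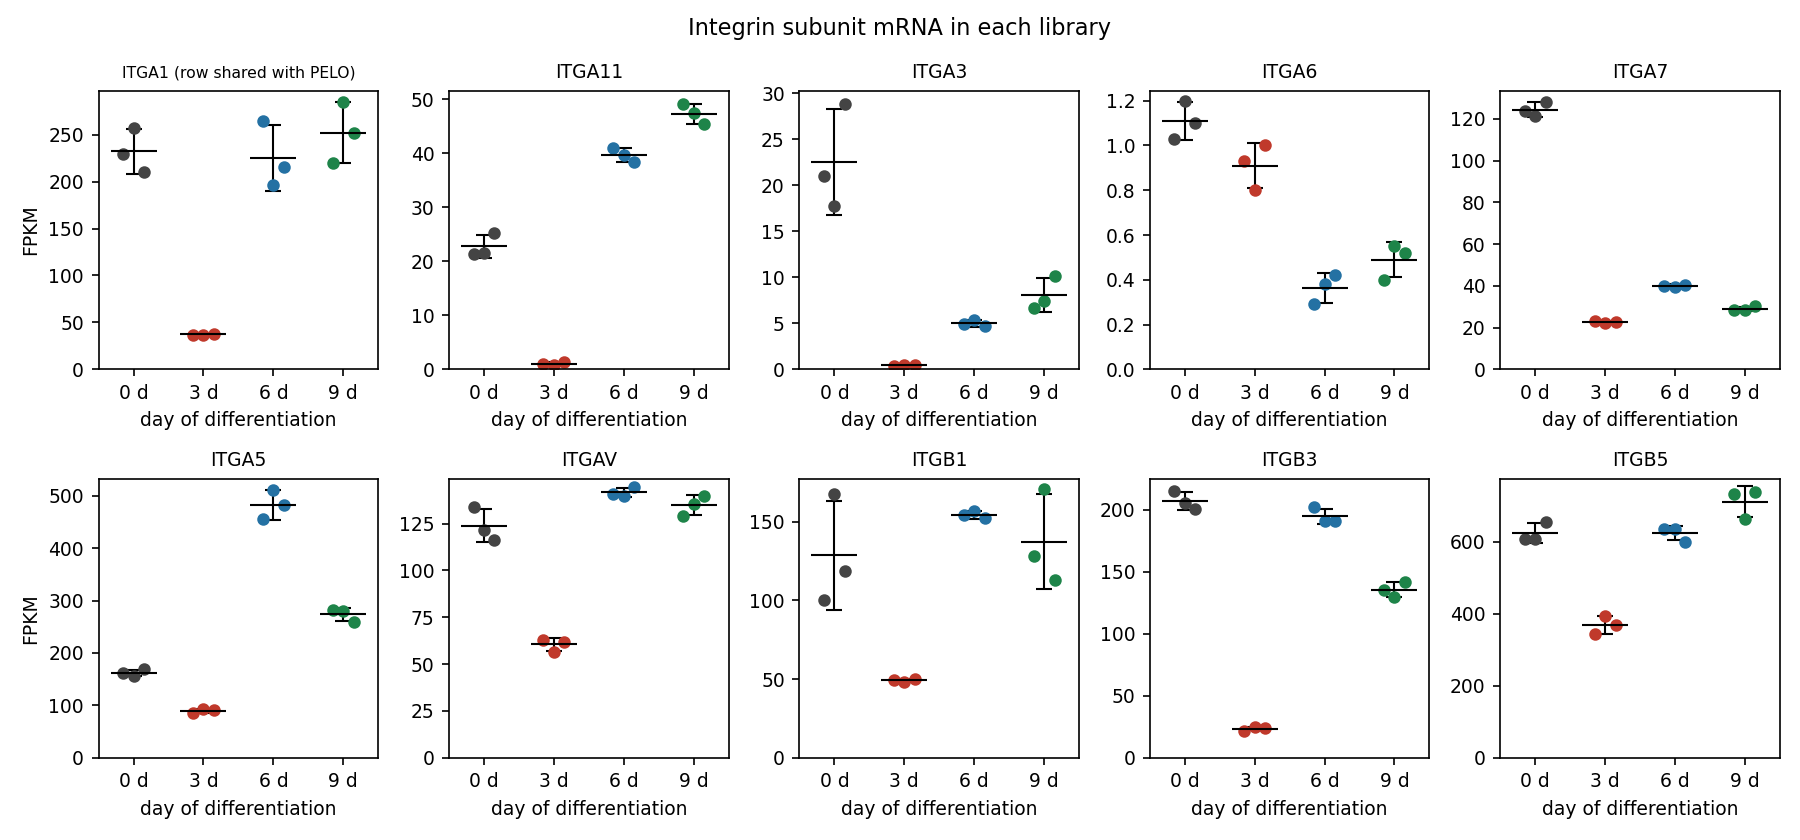
FPKM of each of the 10 integrin subunits (y axis, linear, from 0) in the 12 libraries by day (x axis), with 1 dot per library and black bars for the mean ± SD of 3 libraries. The 3 d libraries are the lowest in every panel except that of ITGA6. ITGA3, ITGA6 and ITGA7 stay below their 0 d libraries at 6 d and 9 d.

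Markers of smooth muscle cells and pericytes moved with the low integrin levels of 3 d, and their part in these was not tested. Of 9 listed, all were in the table and 8 were tested, of which 6 were called lower and 1 higher at 3 d. Of all tested mRNAs, 15.2% were called lower and 8.06% higher. From 3 d to 6 d, 5 of the 8 markers were called higher and 1 lower, beside 9.85% and 9.23% of all. Their summed level was 3061, 3100 and 3258 FPKM in the 0 d libraries, 469, 522 and 497 in those of 3 d, 2589, 2737 and 2746 in those of 6 d and 1731, 1606 and 1677 in those of 9 d. ACTA2, smooth muscle actin, was the most abundant, with means of 1697, 26.8, 1583 and 598 FPKM, and RGS5 had a mean under 0.1 FPKM. DES, the gene of desmin, is on this list and on that of skeletal muscle, and enters the counts and sums of both.

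ITGA1 and ITGA11 bind collagens, ITGA11 mainly fibrillar ones. ITGA11 was at 21.4, 21.6 and 25.2 FPKM in the 0 d libraries, 1.05, 0.77 and 1.34 FPKM at 3 d, 40.9, 39.7 and 38.3 FPKM at 6 d and 49.1, 47.5 and 45.4 FPKM at 9 d. The 3 d libraries were 21.6 times lower than those of 0 d in mean FPKM (log2 fold change -4.33, SE 0.15, adjusted p = 7.10e-09), and the days did not overlap. From 3 d to 6 d the mean rose 37.6-fold, the largest log2 fold change of the 10 between these days (log2 fold change 5.14, SE 0.15, adjusted p = 3.41e-09). The 9 d level was called higher than that of 0 d (log2 fold change 1.06, SE 0.15, adjusted p = 4.50e-04), and all 3 libraries of 9 d lay above all of 6 d, a difference that was not called (log2 fold change 0.26, adjusted p = 0.299).

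ITGA1 (with PELO) was at 229.8, 257 and 209.9 FPKM in the 0 d libraries, 36.9, 37 and 37.9 FPKM at 3 d, 264, 196 and 215 FPKM at 6 d and 219.8, 285 and 251 FPKM at 9 d. Here only 3 d stood apart: it was called lower than 0 d (log2 fold change -2.63, SE 0.12, adjusted p = 5.92e-08), and 6 d was called higher than 3 d (log2 fold change 2.58, SE 0.12). The libraries of 0, 6 and 9 d overlapped, and the 95% interval of the log2 difference between 6 d and 0 d was -0.33 to 0.23. The collagen receptors ITGA1 and ITGA11 thus shared the low level at 3 d, while 9 d was called higher than 0 d for ITGA11 and not for ITGA1 (log2 fold change 0.11, 95% interval -0.17 to 0.39); the difference between the subunits was not tested.

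Among the laminin receptors, the 3 subunits differed in their course. ITGA3 was at 21.1, 17.7 and 28.9 FPKM in the 0 d libraries, 0.36, 0.46 and 0.5 FPKM at 3 d, 4.96, 5.4 and 4.66 FPKM at 6 d and 6.67, 7.45 and 10.1 FPKM at 9 d. The order of days was 0 d, 9 d, 6 d and 3 d, and no libraries of neighbouring days overlapped. The fall at 3 d was the largest of the 10 subunits (log2 fold change -5.37, SE 0.20, adjusted p = 1.03e-08), 51.3 times in mean FPKM. The mean then rose 11.4-fold from 3 d to 6 d (log2 fold change 3.25, SE 0.20, adjusted p = 5.76e-07), but it remained at 22.2% of the 0 d mean at 6 d and at 35.8% at 9 d, both called lower than 0 d (log2 fold change -2.12, adjusted p = 2.30e-05, and -1.46, adjusted p = 3.19e-04). With a pseudocount of 1 in place of 0.1 the log2 fold changes were -4.00 at 3 d against 0 d and 2.06 at 6 d against 3 d, and both were called. Between 6 d and 9 d the log2 fold change was 0.66 (adjusted p = 0.0436), under the fold threshold.

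ITGA7 was at 124, 121 and 128 FPKM in the 0 d libraries, 23.4, 22 and 22.6 FPKM at 3 d, 40.2, 39.3 and 40.6 FPKM at 6 d and 28.3, 28.2 and 30.2 FPKM at 9 d. ITGA7 is the main laminin receptor of skeletal muscle, and its 0 d libraries lay far above the rest. Levels were called lower than at 0 d on each later day, with log2 fold changes of -2.45 at 3 d, -1.64 at 6 d and -2.10 at 9 d (SE 0.05 each, and the largest adjusted p was 1.57e-08). All 6 d libraries lay above those of 3 d, by less than the fold threshold (log2 fold change 0.82, adjusted p = 6.35e-07). The 9 d libraries lay below those of 6 d without overlap (log2 fold change -0.47, adjusted p = 1.60e-04), which is also under that threshold.

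Markers of skeletal muscle were, like ITGA7, mostly lower than at 0 d on the later days, and their part in its course was not tested. Of the 12 markers listed, 11 could be read, and 8 of 11 were called lower at 3 d, 8 at 6 d and 9 at 9 d, each against 0 d. Of all tested mRNAs, 15.2%, 7.97% and 7.47% were called lower on these days. At 6 d against 3 d, where all 6 d libraries lay above those of 3 d for ITGA7, 2 of the 11 were called higher and 2 lower, with a median log2 fold change of -0.43. Of all tested mRNAs, 9.85% were called higher and 9.23% lower between these days. The skeletal muscle markers, which share DES with the smooth muscle list, were also summed. Their summed level was 1377, 2021 and 1749 FPKM in the 0 d libraries, 575, 664 and 659 in those of 3 d, 665, 632 and 677 in those of 6 d and 546, 476 and 565 in those of 9 d. The most abundant was MYMK, a protein of myoblast fusion, with means of 829.8, 340.1, 254 and 212 FPKM. None of the 11 had a mean under 0.1 FPKM.

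ITGA6, a laminin receptor of epithelial and other cells, had the lowest mean of the 10 subunits over the 12 libraries, although ITGA3 was lower at 3 d. ITGA6 was at 1.03, 1.2 and 1.1 FPKM in the 0 d libraries, 0.93, 0.8 and 1 FPKM at 3 d, 0.29, 0.38 and 0.42 FPKM at 6 d and 0.4, 0.55 and 0.52 FPKM at 9 d. Its highest day was 0 d and its lowest 6 d, and the libraries of 6 d and 9 d overlapped. No fall was called at 3 d (log2 fold change -0.26, 95% interval -0.60 to 0.07, adjusted p = 0.168). ITGA6 was called lower at 6 d than at 0 d (log2 fold change -1.39, SE 0.15, adjusted p = 5.37e-05) and than at 3 d (log2 fold change -1.13, SE 0.15, adjusted p = 1.35e-04), and at 9 d than at 0 d (log2 fold change -1.04, adjusted p = 4.08e-04). At this low level the folds depend on the pseudocount: with 1 in place of 0.1, the log2 fold changes were -0.63, -0.49 and -0.50 in that order, and none was called. The 9 d call was also lost after rescaling the libraries (log2 fold change -0.88), without the second 0 d library (-0.99) and without the first 9 d library (-0.93).

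The summed level of epithelial markers was also highest at 0 d and lowest at 6 d, and their part in the course of ITGA6 was not tested. It was 8.39, 8.66 and 9.75 FPKM in the 0 d libraries, 4.43, 5 and 5.08 in those of 3 d, 2.67, 2.34 and 2.44 in those of 6 d and 3.22, 3.59 and 3.54 in those of 9 d. Nearly all of it was CDH1, the cadherin of epithelia, with means of 8.5, 4.78, 2.4 and 3.34 FPKM. CDH1 was called lower than at 0 d at 6 d (log2 fold change -1.78, SE 0.08, adjusted p = 1.81e-07) and at 9 d (log2 fold change -1.32, SE 0.08, adjusted p = 1.79e-06), and not at 3 d (log2 fold change -0.82, SE 0.08, adjusted p = 1.84e-05). All 7 markers listed were in the table and 2 were tested, of which 1 was called lower at 3 d, 2 at 6 d and 2 at 9 d. Of all tested mRNAs, 15.2%, 7.97% and 7.47% were called lower on these days. The other tested marker, KRT19, named after its values were seen, was lowest at 3 d, with means of 0.43, 0.0567, 0.08 and 0.1 FPKM. Its calls against 0 d were lost with a pseudocount of 1 (log2 fold changes -0.43, -0.40 and -0.38), and those of 6 d and 9 d also with 0.01, where the folds were larger than in the main fit (log2 fold changes -2.31 and -2.77, adjusted p = 0.155 and 0.088, beside -1.55 and -1.51). EPCAM, KRT8, KRT5 and KRT14 were listed at 0 in all libraries, and KRT18 had a mean under 0.1 FPKM.

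ITGA5 is the classical fibronectin receptor, and ITGAV pairs with several beta subunits. ITGA5 was at 161, 156 and 169 FPKM in the 0 d libraries, 84.9, 92.3 and 91.1 FPKM at 3 d, 455, 511 and 481 FPKM at 6 d and 282, 281 and 259 FPKM at 9 d. The 4 days did not overlap, and the order was 6 d, 9 d, 0 d and 3 d. At 6 d ITGA5 was called higher than at 0 d (log2 fold change 1.57, SE 0.06, adjusted p = 5.56e-08) and than at 3 d (log2 fold change 2.43, SE 0.06, adjusted p = 1.26e-09), the latter a rise of 5.39-fold in mean FPKM. Differences of 3 d from 0 d (log2 fold change -0.86, adjusted p = 1.19e-06), 9 d from 0 d (0.76, adjusted p = 8.83e-06) and 9 d from 6 d (-0.81, adjusted p = 1.41e-05) passed the test and missed the fold threshold.

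ITGAV was at 134, 122 and 116 FPKM in the 0 d libraries, 63, 56.7 and 61.8 FPKM at 3 d, 141, 139.8 and 144 FPKM at 6 d and 129, 135 and 140 FPKM at 9 d. The 3 d libraries lay far below the others, and those of 6 d lay above those of 0 d. The fall at 3 d had a log2 fold change of -1.03 (SE 0.07, adjusted p = 4.52e-07), just past the fold threshold. It was no longer called after rescaling the libraries by their median ratio (-0.94), without the first 0 d library (-0.98) or without the second 3 d library (-0.98). The rise from 3 d to 6 d was called (log2 fold change 1.23, SE 0.07, adjusted p = 1.83e-07). Libraries of 6 d and 9 d overlapped, as did those of 9 d and 0 d.

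The 3 beta subunits were all lower at 3 d, by unlike amounts. ITGB3 was at 215, 205 and 200.2 FPKM in the 0 d libraries, 22, 24.5 and 24 FPKM at 3 d, 202, 191 and 191 FPKM at 6 d and 135, 129 and 142 FPKM at 9 d. ITGB3, a partner of ITGAV, fell 8.8 times in mean FPKM at 3 d (log2 fold change -3.13, SE 0.06, adjusted p = 1.27e-10) and rose 8.28-fold from 3 d to 6 d (log2 fold change 3.04, SE 0.06, adjusted p = 3.15e-10). At 6 d its libraries overlapped those of 0 d (95% interval of the log2 difference -0.22 to 0.04). At 9 d they lay below both, with log2 fold changes of -0.61 against 0 d and -0.52 against 6 d, which were under the fold threshold (adjusted p = 3.25e-05 and 2.02e-04).

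ITGB1 was at 100.3, 167 and 118 FPKM in the 0 d libraries, 49.7, 48.2 and 50 FPKM at 3 d, 154, 157 and 152 FPKM at 6 d and 128, 171 and 113 FPKM at 9 d. ITGB1 is a partner of all 7 alpha subunits described here. Its spread was wide at 0 d (129 ± 34.7 FPKM, mean ± SD, n = 3) and at 9 d (137 ± 30.1), and narrow at 3 d (49.3 ± 0.934) and 6 d (154 ± 2.34). It was called lower at 3 d (log2 fold change -1.35, SE 0.18, adjusted p = 1.39e-04) and higher at 6 d than at 3 d (log2 fold change 1.64, SE 0.18, adjusted p = 4.25e-05), and 0, 6 and 9 d overlapped.

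ITGB5 was at 609, 608 and 655 FPKM in the 0 d libraries, 344, 394 and 370.2 FPKM at 3 d, 636, 636 and 601 FPKM at 6 d and 733, 663 and 740 FPKM at 9 d. ITGB5, which pairs with ITGAV, was the most abundant of the 10 on every day. The log2 fold changes were -0.76 at 3 d against 0 d and 0.76 at 6 d against 3 d (adjusted p = 4.45e-06 and 6.14e-06), neither past the fold threshold. Means of 0 d and 6 d were 624 ± 26.9 and 624 ± 20.3 FPKM (95% interval of the log2 difference -0.14 to 0.14), and at 9 d all libraries lay above those of 0 d by a log2 fold change of 0.19 (adjusted p = 0.0441).

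**Figure D2:**
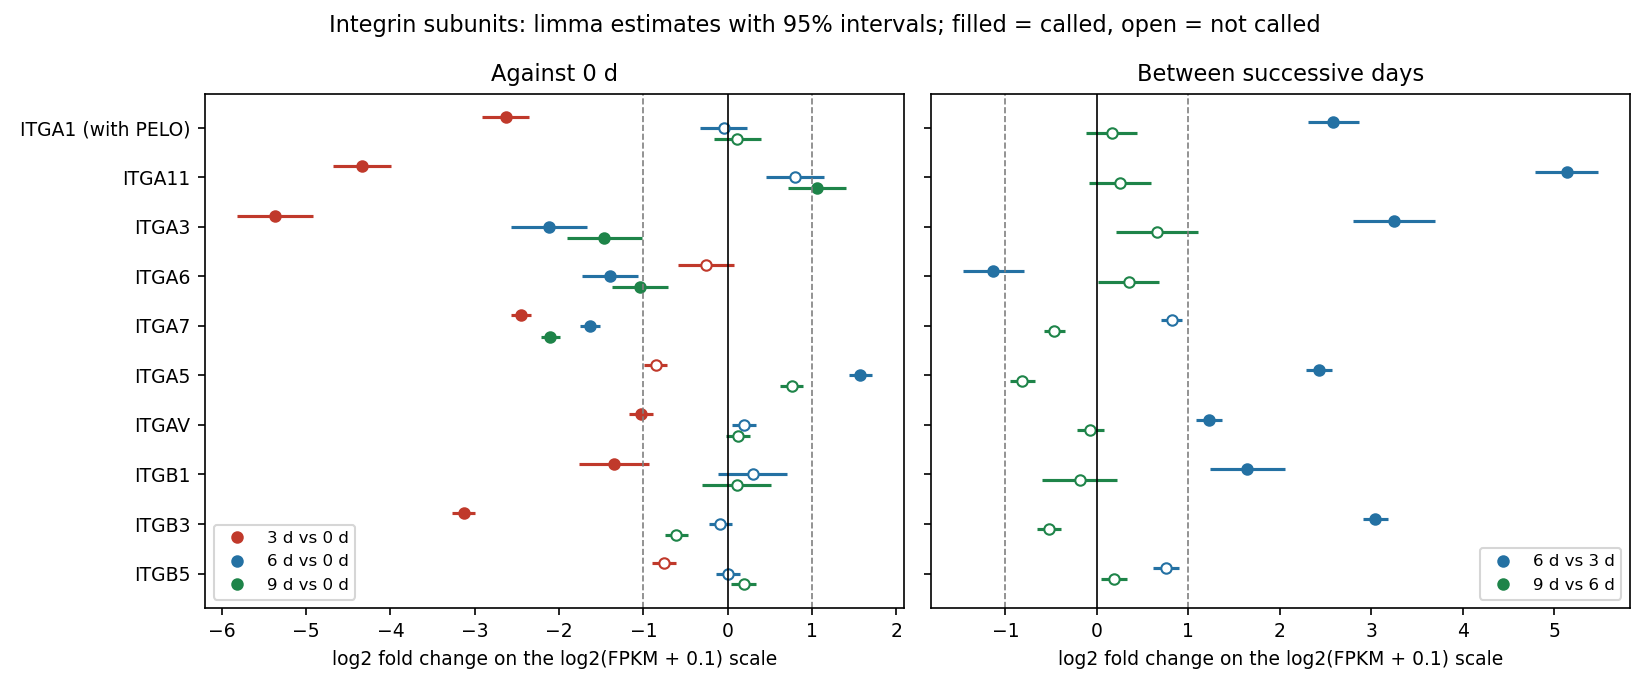
Log2 fold change of each of the 10 integrin subunits (rows) from limma, with lines for 95% intervals, filled dots for called and open dots for not called differences, and dashed lines at a log2 fold change of -1 and 1. Against 0 d (left), ITGA3 and ITGA7 are called lower on all 3 later days, and between successive days (right) 7 subunits are called higher at 6 d than at 3 d while ITGA6 is called lower.

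By the protocol, IBMX and dexamethasone were withdrawn after 48 h, before both 3 d and 6 d. From 3 d to 6 d, 7 of the 10 subunits were called higher (ITGA1, ITGA3, ITGA5, ITGA11, ITGAV, ITGB1 and ITGB3), where 9.85% of all tested mRNAs were, and 1 was called lower (ITGA6), against 9.23% of all. Their median log2 fold change was 2.04, beside -0.09 for all tested mRNAs. This comparison shares its 3 d libraries with that of 3 d and 0 d, and the comparisons against 0 d share the 0 d libraries. At 6 d against 0 d, 1 of 10 was called higher (ITGA5, background 3.39%) and 3 lower (ITGA3, ITGA6 and ITGA7, background 7.97%). At 9 d against 0 d, 1 of 10 was called higher (ITGA11, background 3.41%) and 3 lower (ITGA3, ITGA6 and ITGA7, background 7.47%). Between 6 d and 9 d limma called 0 of 10, with backgrounds of 2.55% higher and 1.89% lower; at an unadjusted p under 0.05, 3 were higher and 3 lower.

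Rescaling the libraries by their median ratio moved the median of all mRNAs by 0.14 at 6 d and 0.17 at 9 d against 0 d on the log2 scale. Relative to that shift, the log2 fold changes at 6 d were 1.72 for ITGA5, -1.98 for ITGA3, -1.26 for ITGA6 and -1.49 for ITGA7. At 9 d they were 1.24 for ITGA11, -1.28 for ITGA3 and -1.92 for ITGA7. Of all mRNAs called at 9 d against 0 d, 31.3% were higher with the deposited values and 45% after rescaling.

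FPKM are levels per length, so that subunits can be set beside each other as mRNA, though not as protein. The exception is ITGA1, whose row also holds PELO in an unknown part. Sums, shares and ratios with ITGA1 hold PELO too. Summed over the 10, the 0 d libraries held 1649 ± 31.2 FPKM (mean ± SD, n = 3), and those of 3, 6 and 9 d held 655 ± 25.9, 1908 ± 35.4 and 1730 ± 18.5 FPKM. The make-up of that sum differed between the days. ITGB5 made up 37.9 ± 1.71% of it before induction and 56.4 ± 1.68%, 32.7 ± 0.528% and 41.2 ± 2.79% on the later days in their order. The share of ITGB3 was 12.6 ± 0.655% before induction and then 3.59 ± 0.0663%, 10.2 ± 0.214% and 7.83 ± 0.401%. Of the summed level of the 7 alpha subunits, ITGA5 made up 23.5 ± 1.26% before induction and then 42.1 ± 1.81%, 51.6 ± 3.38% and 36.8 ± 2.26%. ITGA1 (with PELO) made up 33.7 ± 3.03% before induction and then 17.6 ± 0.0447%, 24.1 ± 3.5% and 33.7 ± 2.79%. ITGA5 was below ITGA1 (with PELO) in each 0 d library and above it in each library of 3 d and 6 d. At 9 d the ratio of ITGA5 to ITGA1 (with PELO) was 1.28, 0.987 and 1.03.

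Between the partners of ITGAV, the ratio of ITGB5 to ITGB3 was 2.83, 2.96 and 3.27 in the 0 d libraries, 15.6, 16.1 and 15.4 in those of 3 d, 3.15, 3.33 and 3.15 in those of 6 d and 5.41, 5.13 and 5.22 in those of 9 d. The 3 d libraries had ratios well above the rest, and those of 9 d lay above 0 d and 6 d. The 6 alpha subunits that pair with ITGB1 other than ITGAV, which has several partners, summed to 4.58 times its level at 0 d, 3.08 times at 3 d, 5.14 times at 6 d and 4.55 times at 9 d. Its single values at 0 d were 5.56, 3.44 and 4.75. The ratios are given as a description, with no test.

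**Figure D3:**
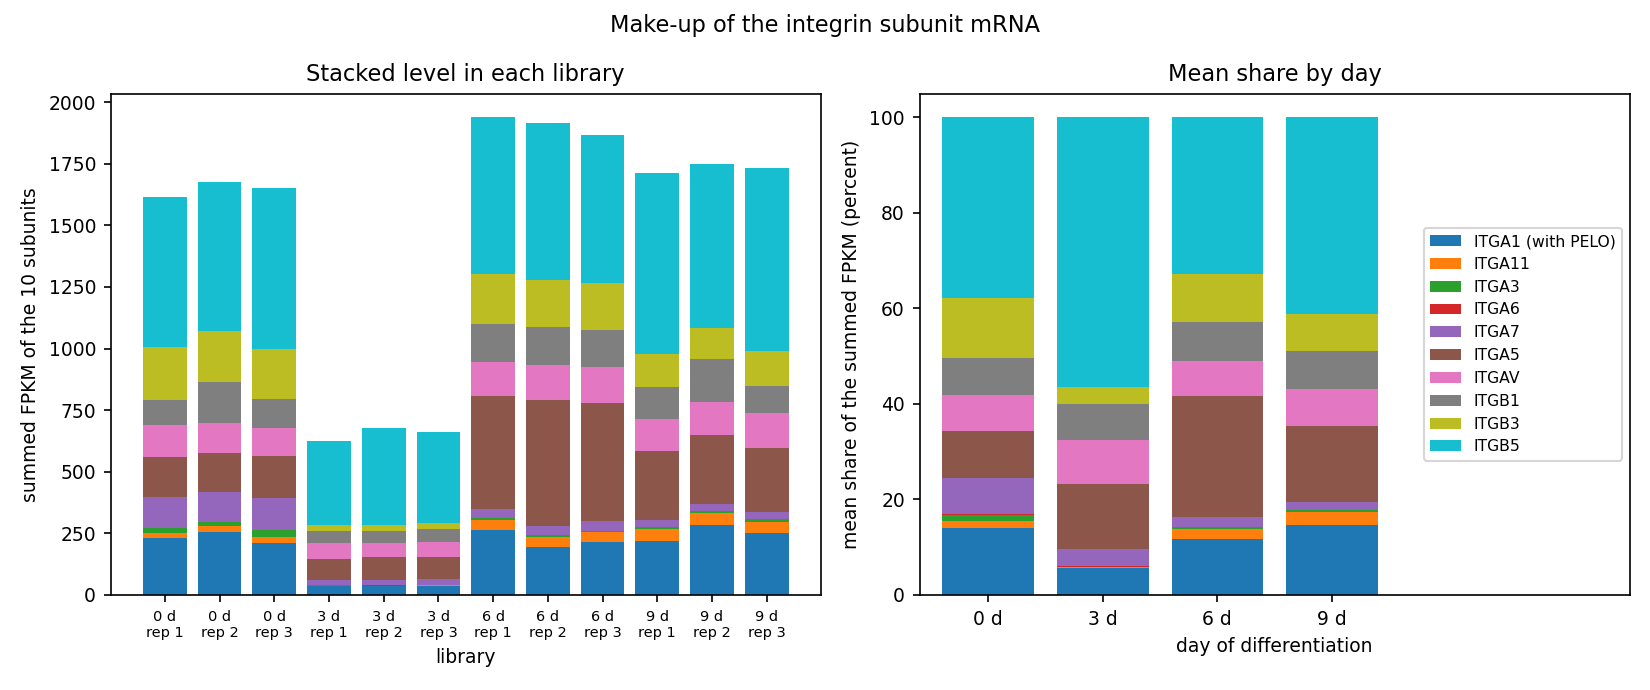
Left: FPKM of the 10 integrin subunits stacked for each of the 12 libraries. Right: the mean share of each subunit in that sum by day, in percent. The 3 d libraries have the lowest stacks, and ITGB5 takes up 56.4% of them on average.

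The other 16 integrin subunits were listed to set the 10 in their family. Of these, 12 passed the filter on low values, and ITGAD, ITGAL, ITGAM and ITGB2, which mark leukocytes, did not; ITGAM was listed at 0 in all 12 libraries. A further leukocyte integrin, ITGAX, named after its values were seen, passed it with 0.11 ± 0.02 FPKM at 0 d, 0.247 ± 0.0462 FPKM at 3 d, 0.147 ± 0.0416 FPKM at 6 d and 0.423 ± 0.0839 FPKM at 9 d. Its 3 d libraries lay above those of 0 d and 6 d, by less than the fold threshold (log2 fold change 0.72 against 0 d, adjusted p = 0.00617). ITGAX was called higher at 9 d than at 0 d (log2 fold change 1.31, adjusted p = 2.81e-04) and than at 6 d (1.09, adjusted p = 0.00177). Neither was called with a pseudocount of 1 (0.36 and 0.31), nor the latter without the second 6 d library (0.94) or the first 9 d library (0.96). At 3 d, 3 of 12 tested were called higher and 4 lower than at 0 d, with a median log2 fold change of -0.49. Of all tested mRNAs, 8.06% were called higher and 15.2% lower, with a median of -0.06. Called lower were ITGA4 (15.9 ± 2.11 FPKM at 0 d and 1.43 ± 0.366 at 3 d), ITGB4 (3.36 ± 0.261 and 0.12 ± 0.0436), ITGB6 (5.89 ± 1.75 and 0.34 ± 0.0781) and ITGB8 (41.4 ± 6.45 and 16.9 ± 1.42). ITGB4 is the partner of ITGA6 in hemidesmosomes, and ITGB6 and ITGB8 pair with ITGAV.

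Called higher at 3 d were ITGA8 (2.59 ± 0.265 FPKM at 0 d and 5.44 ± 0.136 at 3 d), ITGA10 (0.657 ± 0.162 and 1.82 ± 0.12) and ITGA2B (1.97 ± 0.483 and 4.03 ± 0.639). With a pseudocount of 1 none of the 3 was called (log2 fold changes 0.84, 0.77 and 0.77). The call was also lost for ITGA8 without the third 0 d library (0.98), and for ITGA2B without the second 0 d library (0.82) or the second 3 d library (0.89). From 3 d to 6 d, 9.85% of all tested mRNAs were called higher and 9.23% lower. Of the 12 subunits, limma called 6 higher and 0 lower (2 lower at an unadjusted p under 0.05). Of these 6, ITGA4 (log2 fold change 0.72), ITGB4 (0.75), ITGB6 (0.44) and ITGA9 (0.39) were not called with a pseudocount of 1. ITGA9, named after its values were seen, was at 0.1 ± 0.0529 FPKM at 3 d and 0.44 ± 0.0608 FPKM at 6 d. The call of ITGA4 was also lost without the second 3 d library (0.86) or the second 6 d library (0.93), and that of ITGB6 without the first 3 d library (0.996). ITGA8, a receptor for nephronectin and a partner of ITGB1, reached 25.9 ± 0.157 FPKM at 6 d and was at 8.23 ± 0.311 FPKM at 9 d, called lower than at 6 d (log2 fold change -1.64, adjusted p = 8.83e-07). ITGA4, a fibronectin and VCAM1 receptor, was at 3 ± 0.416 FPKM at 6 d and rose to 23.9 ± 2.12 FPKM at 9 d (log2 fold change 2.96, SE 0.18, adjusted p = 3.24e-06). ITGB8 had its highest level at 9 d (99.1 ± 5.05 FPKM), called higher than at 0 d (log2 fold change 1.27). ITGAE was read from a row that it shares with P2RX5 (mean of 4.27 FPKM over the 12 libraries), and it was called in none of the comparisons (the smallest adjusted p of limma was 6.10e-05, with a log2 fold change of -0.93).

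Matrix ligands of integrins moved in both directions at 3 d. Of all tested mRNAs, 8.06% were called higher and 15.2% lower on that day. Of the collagens, 2 of 10 tested were called higher and 5 lower (median log2 fold change -0.70). The largest fall was that of COL6A3, a chain of the microfibrillar collagen VI, from 211 ± 6.97 to 50.2 ± 3.69 FPKM (log2 fold change -2.07, SE 0.07, adjusted p = 7.21e-09). The largest rise was that of COL4A2, a chain of basement membrane collagen, from 6.45 ± 0.155 to 34.2 ± 6.82 FPKM (log2 fold change 2.37, SE 0.13, adjusted p = 1.49e-07). Of the laminins, ligands of ITGA3, ITGA6 and ITGA7, 4 of 10 tested were called higher and 3 lower (median log2 fold change 0.73). LAMA3 fell from 316 ± 13.4 to 2.65 ± 1.33 FPKM (log2 fold change -6.98, SE 0.33, adjusted p = 5.76e-08), and LAMA1 rose from 1.24 ± 0.152 to 19.3 ± 2.33 FPKM (log2 fold change 3.85, SE 0.25, adjusted p = 5.27e-07). LAMA3, the alpha chain of laminin-332 and a ligand of ITGA3 and ITGA6, was at 11.7 ± 0.694 FPKM at 6 d and 25.6 ± 4.8 FPKM at 9 d.

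Of the proteins with RGD motifs and other matrix ligands, 7 of 10 tested were called lower at 3 d and 0 higher by limma (1 at an unadjusted p under 0.05), with a median log2 fold change of -1.71. Of all tested mRNAs, 15.2% were called lower and 8.06% higher. From 3 d to 6 d, 9 of the 10 were called higher, beside 9.85% of all tested mRNAs, and the median was 2.40. TNC, tenascin C, had the largest fall, from 3957 ± 40.1 to 60.1 ± 5.3 FPKM (log2 fold change -6.04, SE 0.07, adjusted p = 9.20e-12), and stood at 5473 ± 297 FPKM at 6 d. FN1, fibronectin, was picked after its values were seen because it is the ligand of ITGA5. Its level was 3398 ± 109 FPKM before induction and 2723 ± 145, 7243 ± 175 and 6228 ± 224 FPKM at 3, 6 and 9 d. It was called higher at 6 d than at 0 d (log2 fold change 1.09, SE 0.05, adjusted p = 1.34e-07), and at 9 d only after rescaling (log2 fold change 1.06 in place of 0.87). Both ITGA5 and FN1 had their highest means at 6 d. Some other tested genes of this list, TNC among them, were also highest at 6 d, and the rest were highest at 0 d or 9 d.

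Among the adaptors that link integrins to actin, 1 of 28 tested was called higher and 18 lower at 3 d (median log2 fold change -1.38). LIMS2, a partner of integrin-linked kinase, fell from 6.03 ± 0.44 to 0.14 ± 0.03 FPKM (log2 fold change -4.68, SE 0.11, adjusted p = 5.49e-10). With a pseudocount of 1 its log2 fold change was -2.62. The single rise was that of TNS4, a tensin, from 0.94 ± 0.01 to 5.17 ± 1.84 FPKM (log2 fold change 2.29, SE 0.46, adjusted p = 0.00198). From 3 d to 6 d, 11 of 28 were called higher and 2 lower, beside 9.85% and 9.23% of all tested mRNAs. Of the kinases of adhesion sites, 1 of 9 tested was called higher and 2 lower at 3 d (median log2 fold change -0.22), beside 8.06% and 15.2% of all tested mRNAs. FYN rose from 419 ± 27.8 to 973 ± 90 FPKM (log2 fold change 1.21, SE 0.10, adjusted p = 2.95e-06), and PAK1 fell from 6.18 ± 1.08 to 1.52 ± 0.61 FPKM (log2 fold change -2.01, SE 0.28, adjusted p = 1.69e-04). Of the regulators and membrane partners, 1 of 15 tested was called higher and 5 lower at 3 d (median log2 fold change -0.50). DAB2, an adaptor of integrin endocytosis, fell from 961 ± 139 to 258 ± 25.1 FPKM (log2 fold change -1.89, SE 0.12, adjusted p = 5.44e-07), and CAV1, the main protein of caveolae, rose from 44.9 ± 2.68 to 101 ± 2.11 FPKM (log2 fold change 1.16, SE 0.06, adjusted p = 1.68e-07). From 3 d to 6 d, limma called 0 of 9 kinases higher and 2 lower (3 higher at an unadjusted p under 0.05). Laminins had 3 of 10 called higher and 2 lower between these days. For the collagens limma called 5 of 10 higher and 0 lower, and for the regulators and membrane partners 5 of 15 and 0. At an unadjusted p under 0.05, 3 collagens and 4 regulators were lower.

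**Figure D4:**
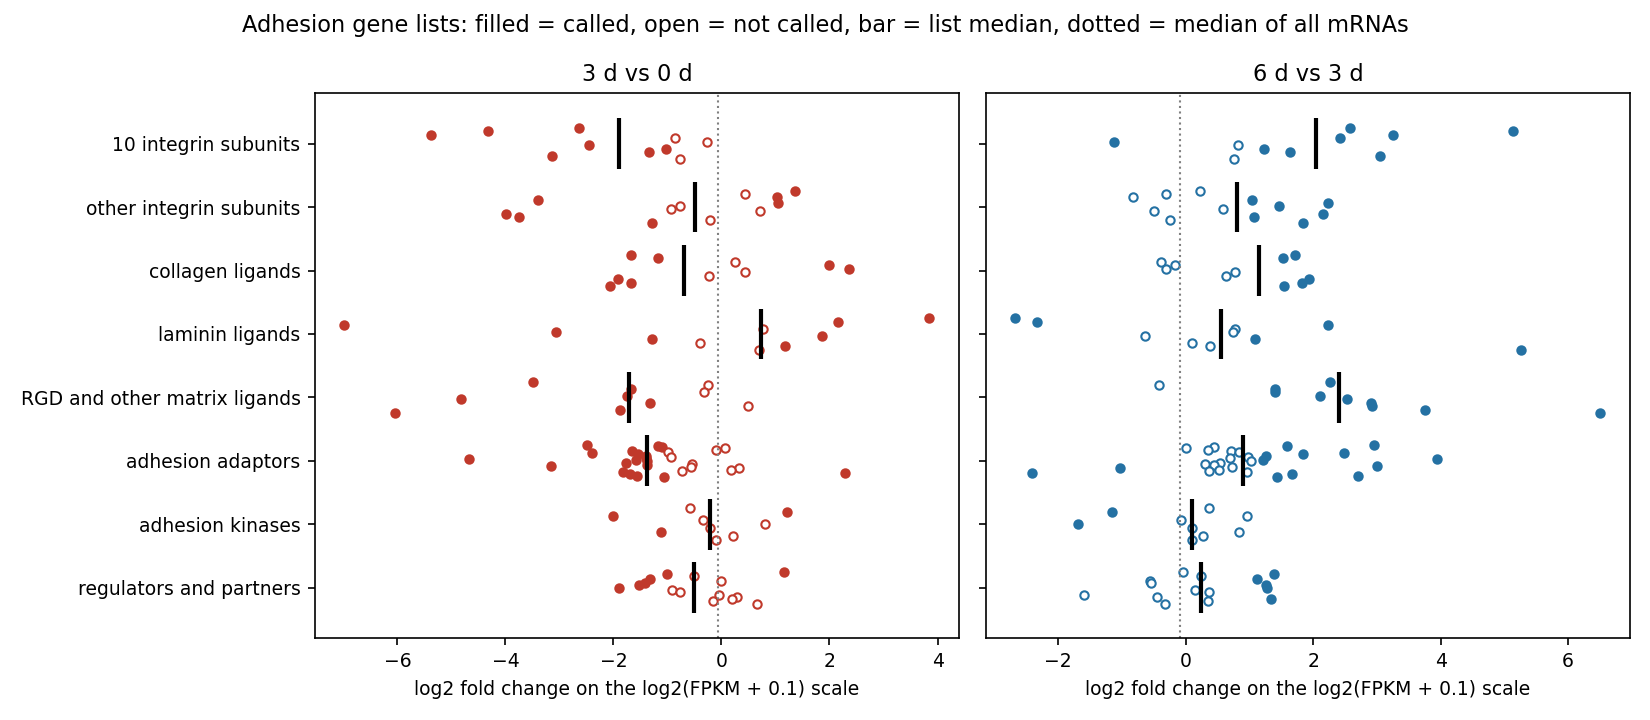
Log2 fold change of each tested gene (dots) in 8 lists of integrin subunits, matrix ligands, adaptors, kinases and regulators at 3 d against 0 d (left) and 6 d against 3 d (right). Filled dots are called, open dots are not, black bars are list medians and the dotted line is the median of all tested mRNAs. The median of the 10 integrin subunits lies at -1.90 on the left and 2.04 on the right, 2 comparisons that share the 3 d libraries.

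Markers of the labelled cell type were present. Those of preadipocytes and fibroblasts had a summed level of 13530, 12870 and 13720 FPKM in the 0 d libraries, 44060, 46100 and 45010 in those of 3 d, 34770, 35390 and 36320 in those of 6 d and 48690, 48290 and 49390 in those of 9 d, led by DCN (means of 9949, 42430, 31460 and 44460 FPKM), with DLK1 under a mean of 0.1 FPKM. Of the 6 tested, 4 were called higher and 2 lower at 3 d, beside 8.06% and 15.2% of all tested mRNAs. The 2 lower ones, named after their values were seen, were the collagen gene COL1A1, at 3018 ± 111 FPKM at 0 d and 941 ± 57.2 FPKM at 3 d, and the surface marker CD34, at 0.63 ± 0.135 and 0.1 ± 0.0173 FPKM. CD34 was also called lower at 6 d and 9 d, and on none of the 3 days with a pseudocount of 1 (log2 fold changes -0.56, -0.67 and -0.65). Those of adipocytes had a summed level of 65.5, 75.1 and 75 FPKM in the 0 d libraries, 186, 186 and 193 in those of 3 d, 100.3, 106 and 114 in those of 6 d and 100.3, 84.6 and 99.4 in those of 9 d. Of the 12 adipocyte markers, 6 were called higher and 2 lower at 3 d. FABP4, a carrier of fatty acids named after its values were seen, as are LEP and CIDEA, rose from 3.3 to 91.1 FPKM at 3 d (log2 fold change 4.75, SE 0.12, adjusted p = 7.43e-10) and was the most abundant of them on that day. The 2 lower ones were LEP (2.34 and 0.07 FPKM) and CIDEA (11.9 and 5.81 FPKM). The call of CIDEA (log2 fold change -1.03) was lost with a pseudocount of 1 (-0.93), after rescaling (-0.94), without the second 0 d library (-0.99) and without the second 3 d library (-0.91). PLIN1, a coat protein of lipid droplets read from a row shared with PEX11A, was the most abundant over the 12 libraries (means of 25.7, 47, 34.4 and 33.4 FPKM). The adipocyte markers called higher at 3 d other than FABP4 are also named after their values were seen. They were LPL (means of 4.53 FPKM at 0 d and 10.6 at 3 d), LIPE (0.337 and 1.92), PLIN4 (0.173 and 0.923), GPD1 (0.287 and 0.8) and ADIPOQ (0.0233 and 0.723). At such low levels the folds depend on the pseudocount, and these calls are given for 0.1 only.

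Endothelial, blood and platelet markers were low, and the genes called among them are named after their values were seen. Summed endothelial markers stayed between 2.59 and 3.81 FPKM per library, led by VWF, and PECAM1, CDH5, KDR and TIE1 had means under 0.1 FPKM. Of 4 tested, limma called 0 higher and 0 lower at 3 d (1 and 2 at an unadjusted p under 0.05). The shares of all tested mRNAs on that day were 8.06% and 15.2%. Blood and immune markers had a summed level of 3.4, 2.28 and 2.37 FPKM in the 0 d libraries, 5.33, 6.03 and 5.92 in those of 3 d, 2.9, 4.07 and 6.28 in those of 6 d and 5.54, 4.88 and 4.19 in those of 9 d. The 3 d libraries lay above those of 0 d. Of 5 tested, CD14 (means of 0.673 FPKM at 0 d and 2.4 at 3 d), CSF1R (0.33 and 0.87) and CD79A (0.243 and 1.96) were called higher at 3 d, and LAPTM5 (1.22 and 0.167) was called lower. With a pseudocount of 1 CSF1R (log2 fold change 0.50) and LAPTM5 (-0.93) were not called, nor was CSF1R without the third 0 d library (1.0). CD14 was the most abundant over the 12 libraries, PTPRC and TYROBP were listed at 0 in all of them, and CD3E and AIF1 were under a mean of 0.1 FPKM. Platelet markers stayed between 1.79 and 4.9 FPKM, most of it ITGA2B itself, with GP1BA and PPBP under a mean of 0.1 FPKM. Of 3 tested, ITGA2B was called higher at 3 d, and PF4, listed at 0 in the 3 d libraries and at 0.563 FPKM at 0 d, was called lower (not with a pseudocount of 1, log2 fold change -0.61). Of 8 proliferation genes, led by AURKB (means of 36.2, 33.8, 29.2 and 20.9 FPKM), limma called 0 at 3 d, where 5 were higher and 0 lower at an unadjusted p under 0.05. Their summed level was 101, 84.1 and 84 FPKM at 0 d and 118, 104 and 131 FPKM at 3 d.

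The genes whose course was most like each subunit were sought outside the integrin family, among rows with a mean of at least 1 FPKM, by Pearson r of log2(FPKM + 0.1) over the 12 libraries. Rows with a LOC name, a locus number in place of a gene symbol, were left out of the search. Since the libraries fall into 4 days, these r follow mainly the 4 day means, and they are given as a description. For the collagen receptors, the most alike were RAB31 (r = 0.992) and PPP1R3B (r = 0.991) for ITGA1 and CXHXorf38 (r = 0.997) and HSPB7 (r = 0.994) for ITGA11. HSPB7, a small heat shock protein of muscle, had means of 27.1, 0.717, 46.2 and 40.4 FPKM over the 4 days. For the laminin receptors they were CYP27A1 (r = 0.996) and CD248 (r = 0.996) for ITGA3, FN3K (r = 0.972) and MFSD4B (r = 0.97) for ITGA6 and ANKRD1 (r = 0.995) and RHOBTB3 (r = 0.988) for ITGA7. ANKRD1, a muscle ankyrin repeat protein, had means of 94.3, 16.5, 27.9 and 20.9 FPKM.

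For the fibronectin receptor ITGA5 they were PDLIM1 (r = 0.993) and RBPMS (r = 0.992), and for ITGAV PAWR (r = 0.992) and TNFSF4 (r = 0.992). Among the beta subunits, ITGB1 was most like PCYT1A (r = 0.968) and ATP13A3 (r = 0.957). ITGB3 was most like SLC6A9 (r = 0.998) and TGFB1I1 (r = 0.998). TGFB1I1 is an adaptor of adhesion sites related to paxillin and had means of 44.8, 4.97, 40.4 and 31.6 FPKM. ITGB5 was most like COL6A1 (r = 0.99) and COL6A2 (r = 0.989), 2 chains of collagen VI.

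CircRNAs are closed RNA rings made when a downstream splice site joins an upstream one. Of the 14070 circRNA rows, 30 had 1 of the 10 subunits as host. ITGA3 rows held the most reads of these, 76 over the 12 libraries, followed by ITGAV rows with 69. The 3 ITGA3 rows lie on chromosome 19 of ARS-UCD1.2, on the minus strand, and share the boundary at 36582347. circRNA858 runs to 36582947 and holds 3 exons, circRNA2653 runs to 36590650 and holds 9 exons, and circRNA6306 runs to 36582733 and holds 2 exons.

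Nearly all ITGA3 reads came from circRNA858, with 7, 7 and 18 reads in the 0 d libraries, 0, 9 and 8 in those of 3 d, 1, 0 and 0 in those of 6 d and 4, 4 and 10 in those of 9 d. Day 6 thus stood lowest, and the 3 d libraries ranged from 0 to 9. circRNA2653 had 4 reads in all, in 2 libraries of 0 d and 1 of 9 d, and circRNA6306 had 4, all in the second 3 d library. Only circRNA858 had the 5 reads needed for testing. With edgeR's quasi-likelihood test over 2828 circRNAs it was called lower at 6 d than at 0 d (log2 fold change -4.38, adjusted p = 0.0358), where 0.53% of circRNAs were called. From 1 read of 19650 at 6 d and 32 of 21816 at 0 d, the rate was 28.8 times higher at 0 d, with an exact 95% counting interval of 4.82 to 1174. Intervals of this kind cover counting error only.

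That call rested on few reads. It was lost, at a log2 fold change of like size, with DESeq2 (-4.61, adjusted p = 1), with a filter of 20 reads (-4.41, adjusted p = 0.414) and with no filter (-4.39, adjusted p = 0.0848) in edgeR. It was also lost without the third 0 d library (-3.88, adjusted p = 0.397), and without the second (-3.92, adjusted p = 0.322) or the third (-3.84, adjusted p = 0.398) 6 d library. An edgeR fit with a replicate block lost it too (-4.29, adjusted p = 0.102). Without the first 6 d library no read of 6 d was left and the call was kept (adjusted p = 0.0292). Over all alternatives the adjusted p ranged from 0.00682 to 1. The other comparisons of circRNA858 were not called by edgeR, with log2 fold changes of -1.11 at 3 d and -1.04 at 9 d against 0 d (adjusted p = 0.621 and 0.62), -3.27 at 6 d against 3 d (adjusted p = 0.623) and 3.34 at 9 d against 6 d (adjusted p = 0.664). In the same order, 0.813%, 0.566%, 0.424% and 0.389% of the tested circRNAs were called. From 17 reads of 24067 at 3 d, the rate was 13.9 times that of 6 d (exact 95% counting interval 2.18 to 580.1).

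The ITGA3 mRNA and its circRNAs were also compared within each library, as the summed SRPBM (back-spliced reads scaled to the mapped reads of the library) of the 3 rows per FPKM of ITGA3. The ratio was 5.23, 7.66 and 9.24 in the 0 d libraries, 0, 386 and 207 in those of 3 d, 3.78, 0 and 0 in those of 6 d and 10, 14.2 and 14.1 in those of 9 d. At 3 d the mRNA was at 0.36 to 0.5 FPKM, and the ratio was high in the 2 libraries with back-spliced reads. The library without any allows up to 3 reads, which would give a ratio of 139. For the 2 libraries of 6 d without reads this limit is 9.67 and 10.2, above all ratios of 0 d. These limits are those of single libraries.

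Exact permutation tests (two-sided, 3 libraries against 3, smallest possible p 0.1) gave p = 0.4 for 3 d, 0.1 for 6 d and 0.1 for 9 d against 0 d, and adjusted p-values of 0.4, 0.15 and 0.15. With 3 libraries a day this test cannot reach 0.05. At 9 d all 3 ratios lay above those of 0 d, with means of 12.8 and 7.38 SRPBM per FPKM. With read counts in place of SRPBM the 9 d and 0 d libraries overlapped. Leaving out the second 3 d library moved the mean difference of 3 d from 0 d from 190.2 to 96.1 SRPBM per FPKM, and leaving out the first moved it to 289.

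**Figure D5:**
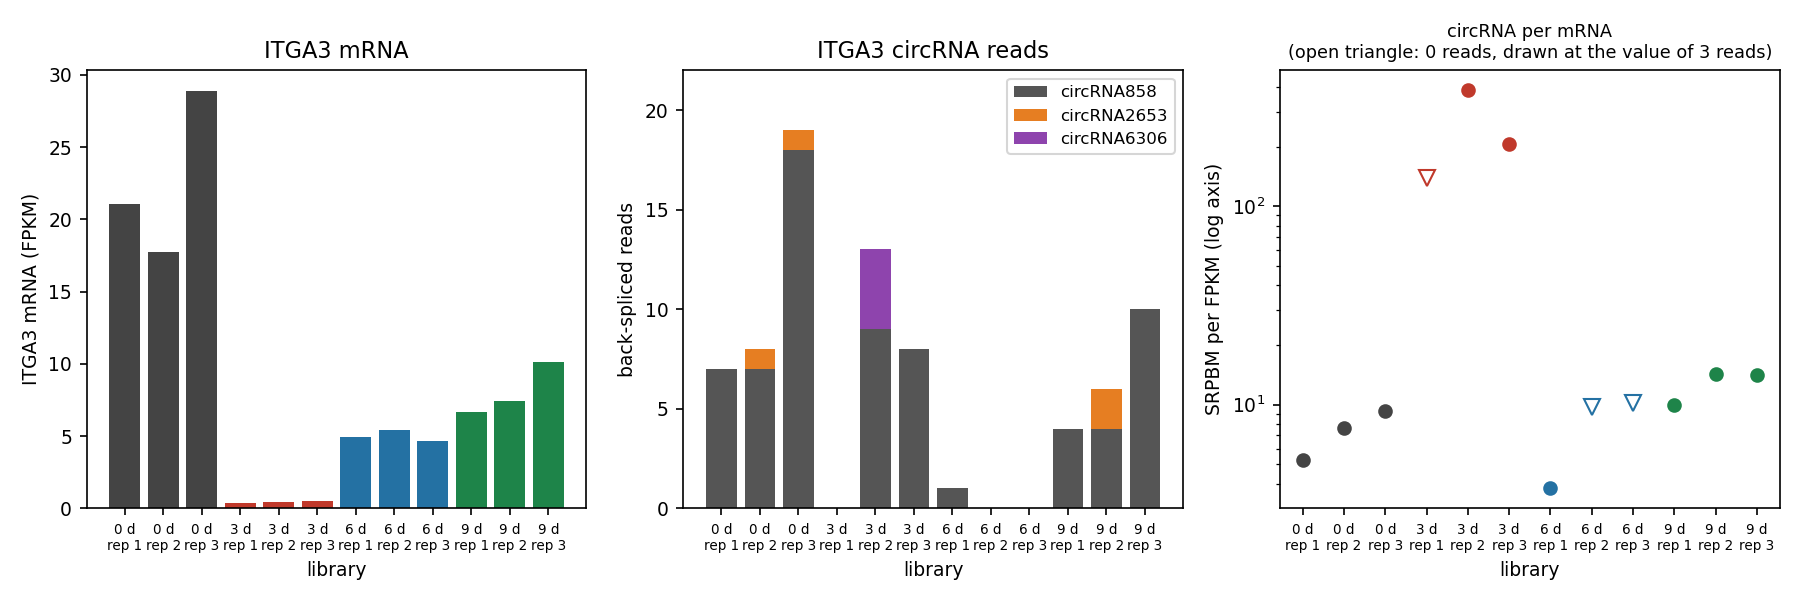
ITGA3 in each of the 12 libraries: mRNA in FPKM (left), back-spliced reads of its 3 circRNAs stacked (middle) and SRPBM per FPKM on a log axis (right), where open triangles stand for libraries with 0 reads, drawn at the value that 3 reads would give. The mRNA is lowest at 3 d and the circRNA reads are lowest at 6 d.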

How the data were processed

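Paired-end RNA sequencing of the 12 libraries gave the deposited tables, which were used without mapping reads again. The authors mapped reads to ARS-UCD1.2 with HISAT2 and quantified mRNAs with StringTie, and the deposited mRNA values are FPKM. The authors assembled circRNAs with CIRCExplorer2 and CIRI and searched unmapped reads for back-splicing with tophat-fusion, and the back-spliced reads were deposited as counts. SRPBM is a deposited signal, in proportion to the counts within a library. The labels describe poly(A) selection and the study's methods depletion of rRNA.

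mRNAs with a mean of at least 0.1 FPKM were fitted with limma 3.58.1 (eBayes with trend) on log2(FPKM + 0.1), and circRNAs of at least 5 counts with edgeR 4.0.16 (TMM, glmQLFTest), each in 1 fit of all 12 libraries with a mean per day. Alternatives were DESeq2 1.42.0, pseudocounts of 1 and 0.01, other filters, median-ratio rescaling, fits of 6 libraries, a replicate block, exact gene names, merged circRNAs within 5 bp, other forms of the ITGA3 ratio and leaving out each library. The fits were also run on simulated data, of which no outcome is given here. R 4.3.3, Python 3.11.15, NumPy 2.4.6, pandas 2.3.3, SciPy 1.17.1 and Matplotlib 3.10.9 were used.

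Named were the 10 subunits, ITGA3 circRNAs, other integrin subunits, the 2 genes most like each subunit, the largest rise and fall called at 3 d in each list of ligands, adaptors, kinases and regulators, and from each marker list the most abundant gene and those near 0. FN1, ITGA9, ITGAX and some marker genes, as stated beside them, were added after their values were seen. The members and lists were chosen with earlier results of these data known. The lncRNA and miRNA tables were not used here.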

Additional observations from a re-analysis of the deposited data

How the results depend on the processing

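Of 80 named differences that were called, 0 changed sign under any alternative, and 26 lost the call under at least 1. The rises of LPL, LIPE, PLIN4, GPD1 and ADIPOQ at 3 d are not among the 80. Counts below stand in the order of 3, 6 and 9 d against 0 d, 6 d against 3 d and 9 d against 6 d. Over the alternatives limma called between 6 and 7, 3 and 4, 3 and 4, and 7 and 8 of the subunits, and 0 between 6 d and 9 d. A pseudocount of 1 called 2184, 967, 888, 1688 and 368 mRNAs, in place of 3585, 1749, 1675, 2939 and 683, since it shrinks the folds of low genes. A mean of at least 1 FPKM called 1114 mRNAs at 9 d against 0 d, with fewer mRNAs tested.

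Calls of circRNAs depended most on the tool and filter. In place of 23, 15, 16, 12 and 11 with edgeR, DESeq2 called 3, 0, 0, 0 and 0 (60, 42, 45, 25 and 20 at an unadjusted p under 0.05), and edgeR on circRNAs with at least 20 counts called 3, 0, 0, 0 and 0 (82, 59, 69, 53 and 33 at an unadjusted p under 0.05); the cause was not tested. Leaving out 1 library at a time gave 10 to 23, 9 to 15, 11 to 17, 6 to 14 and 3 to 13 calls. At 3 d against 0 d there were 15, 15 and 10 without the first, the second and the third 3 d library, and at 6 d 9 without the third 0 d library. Without the third 6 d library there were 6 between 3 d and 6 d and 3 between 6 d and 9 d, where leaving out the third 9 d library gave 7.

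The main fits did not pair libraries by replicate number. Between libraries of different days, the correlation of deviations from the day mean ranged from -0.0981 to 0.112 (median 0.022) for same-numbered ones. For the others it ranged from -0.19 to 0.183 (median -0.0108). With a replicate block, 3591, 1746, 1683, 2933 and 657 mRNAs, 7, 4, 4, 8 and 0 subunits and 17, 9, 13, 10 and 9 circRNAs were called, and circRNA858 at 6 d against 0 d had a log2 fold change of -4.29 with an adjusted p of 0.102 (main fit -4.38).

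Differences near 0 that were not called changed sign. After rescaling, the log2 fold changes at 6 d against 0 d were 0.10 for ITGA1, 0.06 for ITGB3 and 0.15 for ITGB5. Leaving out 1 library at a time gave ranges of -0.171 to 0.043 for ITGA1, -0.018 to 0.036 for ITGB5 and -0.012 to 0.34 for ITGA2B at 6 d against 0 d, of -0.064 to 0.311 for ITGB1 and -0.063 to 0.283 for ITGA2B at 9 d against 0 d, and of -0.206 to 0.069 for ITGA2B at 9 d against 6 d.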
